A study of Mus musculus with 4 samples.

Results

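The 9 genes *Rrm1*, *Rrm2*, *Rrm2b*, *Tyms*, *Tk1*, *Dut*, *Dck*, *Cad* and *Samhd1*, which make, salvage or remove the building blocks of DNA, were followed in neural stem/progenitor cells (NSPCs) treated with PJ34. Every probe that carries one of these gene names was taken. The array holds 15 such probes of 55681, and 12 of them, with at least 1 for each of the 9 genes, passed the filter on dim spots, which left 19682 genes for the tests. PJ34 is an inhibitor of poly(ADP-ribose) polymerases (PARPs), and the arrays compare the mRNA of treated and untreated cells when p53 is present and when it is absent.

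Per the labels, the cells of both genotypes came from Slc:ICR mouse embryos at embryonic day 13.5, and they were grown with EGF and FGF-basic. The methods obtain the Trp53 line from elsewhere and do not state its background, so a difference in strain and the genotype cannot be told apart. Wild-type and Trp53-/- NSPCs were each measured on 2 arrays in 2 colours, with RNA of cells given 20 μM PJ34 in Cy5 and RNA of untreated cells of the same genotype in Cy3. Each RNA was prepared independently, so n = 2 per genotype. The dyes were never swapped, so within a genotype a dye bias of a probe and the effect of PJ34 cannot be told apart; such a bias cancels in the difference between genotypes. The Trp53-/- genotype is shared by all cells of those cultures, and the length of PJ34 exposure before RNA extraction is not given in the sources used here. The *Trp53* probe read 8.28 and 8.51 (log2 signal) in untreated wild-type cells and 7.56 and 7.82 in untreated Trp53-/- cells; whether it lies in the deleted part of the gene is not given in the sources used here.

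All 10 NSPC markers examined, among them *Nes* and *Sox2*, were well above background in both channels of all arrays. Of 6 mesenchymal markers 5, and of 6 microglia and blood markers 4, were above background nowhere. Markers of other cells differed between the untreated genotypes. The summed control signal of 6 oligodendrocyte markers was 2170 and 3540 in wild-type and 9330 and 10000 in Trp53-/- cells. There 3 of the 6 were called higher. The sum of 4 endothelial markers was 8550 and 8120 against 3620 and 3230, but it came almost wholly from *Kdr*. Of these 4, 2 were above background nowhere and only 1, *Kdr*, was called lower without p53, so the sum does not show a difference of the group. Of the neuron markers 3 of 8 were called higher and 1 lower without p53, and of 5 measured astrocyte markers 3 were called higher. Under PJ34, 4 of the 6 oligodendrocyte markers fell in Trp53-/- cells and 1 in wild-type. The part of these markers in the results was not tested. Trp53-/- replicate 2 stood apart. Its PJ34 channel carried the Y-linked transcripts *Eif2s3y* (log2 ratio 4.22) and *Ddx3y* (3.12), which were not above background in its own control channel or on the other Trp53-/- array, whereas all 4 wild-type channels carried them. The main results that rest on this array are given without it too. Its 2 channels differ in Y-linked transcripts. On this array the effect of PJ34 cannot be told apart from the sex of the embryos or other differences between its 2 RNAs. That bears on the Trp53-/- response and on the difference between genotypes. In the comparison of untreated cells, the sex of the embryos and genotype cannot be told apart. In whole cultures, fewer cells of a type and less RNA per cell cannot be told apart either.

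DNA synthesis consumes the 4 deoxyribonucleoside triphosphates (dNTPs). Ribonucleotide reductase makes deoxyribonucleotides from ribonucleotides, thymidylate synthase and thymidine kinase provide thymidylate, and a salvage kinase recovers deoxyribonucleosides, while SAMHD1 breaks dNTPs down. Many of these genes are transcribed mainly around S phase, and *Rrm2b* is a textbook p53 target.

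Promoters are shown for 3 of the 5 genes that fell together in wild-type cells, *Rrm1*, *Rrm2* and *Tk1*, and for *Tyms*, which did not fall. The stretches are the 250 bases before the annotated start in RefSeq (GRCm38.p6), read in the direction of the gene, and were found for 8 of the 9 genes, the exception being *Rrm2b*. Capitals mark a CCAAT box (CCAAT) or a GC box (GGGCGG), each searched on both strands; no pair of marked matches overlaps.
Rrm1, GRCm38.p6 chr7:102441445-102441694, plus strand: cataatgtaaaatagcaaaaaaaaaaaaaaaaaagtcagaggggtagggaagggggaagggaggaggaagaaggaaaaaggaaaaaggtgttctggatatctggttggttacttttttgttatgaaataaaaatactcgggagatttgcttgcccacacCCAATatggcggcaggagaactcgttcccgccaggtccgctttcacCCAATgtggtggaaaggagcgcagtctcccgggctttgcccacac
Rrm2, GRCm38.p6 chr12:24708004-24708253, plus strand: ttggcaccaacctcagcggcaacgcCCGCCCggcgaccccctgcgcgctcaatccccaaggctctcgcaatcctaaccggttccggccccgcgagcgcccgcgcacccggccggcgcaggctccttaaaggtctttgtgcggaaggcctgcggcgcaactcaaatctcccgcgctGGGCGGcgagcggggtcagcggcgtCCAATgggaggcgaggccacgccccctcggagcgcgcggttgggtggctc
Tk1, GRCm38.p6 chr11:117826015-117826264, minus strand: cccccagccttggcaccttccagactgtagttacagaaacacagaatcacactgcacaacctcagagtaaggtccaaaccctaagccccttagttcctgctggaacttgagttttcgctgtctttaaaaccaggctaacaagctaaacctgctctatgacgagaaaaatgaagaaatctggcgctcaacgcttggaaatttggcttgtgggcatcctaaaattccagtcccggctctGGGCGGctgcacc
Tyms, GRCm38.p6 chr5:30073626-30073875, minus strand: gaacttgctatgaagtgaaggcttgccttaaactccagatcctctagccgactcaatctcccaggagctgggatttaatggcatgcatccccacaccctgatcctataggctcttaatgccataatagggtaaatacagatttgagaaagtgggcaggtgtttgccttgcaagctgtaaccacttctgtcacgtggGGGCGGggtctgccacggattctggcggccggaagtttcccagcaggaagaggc

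CCAAT was found in 2 of the 8 promoters, those of *Rrm1* and *Rrm2*, and in 33.8% of all 32851 promoters of the table. GGGCGG was found in 7 of the 8, all but that of *Rrm1*, against 32.7% of all promoters. None of the 4 E2F words searched (TTTCCCGC, TTTGGCGC, TTTCGCGC or TTTGCCGC, both strands) was found in these windows of the 8 genes, and 1.86% of all promoters hold at least 1 of them. The word TTTGAA (CHR) was found only in the *Dck* window among the 8, against 16% of all promoters. These are matches of letters and not measured binding sites.

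With ratios normalized by loess and each gene read from its brightest probe, PJ34 lowered 5 of the 9 genes in wild-type NSPCs and none of them in Trp53-/- NSPCs (a second *Samhd1* probe fell in both), while with median centring none was lower in either. The 5 were *Rrm1*, *Rrm2*, *Tk1*, *Dut* and *Samhd1*, at 1.37- to 1.55-fold lower (limma, Storey's q between 0.00102 and 0.00379, n = 2 arrays per genotype). In Trp53-/- cells, *Tyms* and *Cad* rose. A call means p and q under 0.05 in limma's fit over all genes, and 11.4% of all genes were called lower and 13.7% higher in wild-type, against 10.5% lower and 12.7% higher in Trp53-/- cells. No member passed 2-fold as well, a limit that 0.213% of genes passed downward and 0.29% upward in wild-type and 0.279% and 0.0915% in Trp53-/- cells. The median log2 ratio of the 9 genes was -0.45 in wild-type and 0.11 in Trp53-/- cells, beside 0.03 over all genes in both. The wild-type means do not involve Trp53-/- replicate 2, so leaving that array out is no check of them. Without it the median of the 9 genes in Trp53-/- cells was 0.205, with *Tyms* at 0.56 and *Cad* at 0.35. The wild-type direction depended on the scaling: centring each array on its median in place of loess put the median of all genes at 0.46 (wild-type) and 0.64 (Trp53-/-), called 11889 genes higher and 91 lower in wild-type (2688 and 2235 with loess) and 13532 and 90 in Trp53-/- cells (2505 and 2073), and turned the wild-type values of 8 members positive, *Tyms* being positive already. Relative to that shifted median the 5 genes stood between -0.42 and -0.19, and none was called lower. With the scanner's own log ratios the 5 values stayed between -0.59 and -0.43, but none was called (limma, q between 0.0501 and 0.0748).

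**Figure D1:**
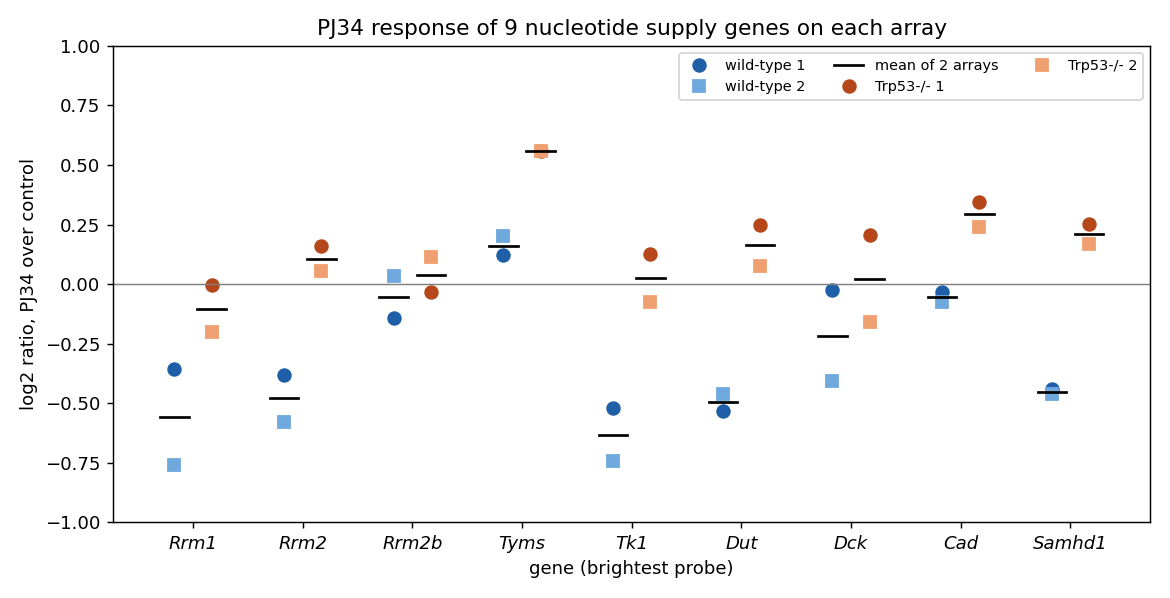
Log2 ratio of PJ34 over control (vertical axis) for the brightest probe of each of the 9 genes, normalized by loess (with median centring 8 wild-type means turn positive), with 1 point per array and a bar at the mean of the 2 arrays of a genotype. Both wild-type arrays lie below both Trp53-/- arrays for all genes but *Rrm2b* and *Dck*, and how many of all genes separate so was not counted. The lowest wild-type mean is that of *Tk1* (-0.63) and the highest Trp53-/- mean that of *Tyms* (0.56).

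Ribonucleotide reductase is built from a large catalytic subunit, *Rrm1*, and a small subunit, of which *Rrm2* is the cell cycle form and *Rrm2b* the p53-inducible form. *Rrm1* had log2 ratios of -0.35 and -0.76 on the wild-type arrays and of -0.0023 and -0.20 on the Trp53-/- arrays. Both wild-type arrays were below both Trp53-/- arrays, and they differed from each other by more than the Trp53-/- arrays did. The wild-type mean was -0.56 ± 0.11 (SE; 1.47-fold lower, q = 0.00379), and the Trp53-/- mean of -0.10 was not called (limma, q = 0.28). Without wild-type replicate 2 the wild-type value was -0.35 and no longer called (limma, q = 0.0806).

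*Rrm2* gave ratios of -0.38 and -0.58 on the wild-type arrays and of 0.16 and 0.05 in Trp53-/- cells, so the genotypes lay on opposite sides of 0. The wild-type mean was 1.39-fold lower (log2 -0.48 ± 0.09 SE, limma, q = 0.00334), and the Trp53-/- mean was 0.11 (q = 0.236). Leaving out wild-type replicate 2 ended this call as well (log2 ratio -0.38, limma, q = 0.0593). The control signal of *Rrm2* was 14.89 and 14.42 in wild-type and 13.71 and 13.87 in Trp53-/- cells, and with PJ34 it was 14.51 and 13.85 in wild-type and 13.87 and 13.92 in Trp53-/- cells.

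*Rrm2b* was not called in any comparison. Its log2 ratios were -0.14 and 0.03 in wild-type and -0.03 and 0.11 in Trp53-/- cells, and the genotypes overlapped. The 95% interval of the wild-type mean ran from -0.27 to 0.16, so a rise to 2-fold lies outside it. Of 19 measured genes of a list of p53 targets, 18 rose and 1 fell in wild-type (median log2 ratio 1.02). None rose and 4 fell in Trp53-/- cells (median -0.08, or -0.11 without Trp53-/- replicate 2). Of the 20 targets listed, 8 are ones the study had picked on these arrays, so the list is not independent evidence of direction. The probe was dim: its control channel was well above background on 1 of the 2 arrays of each genotype, at log2 signals from 6.48 to 7.02. The other *Rrm2b* probe was above background in no channel.

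**Figure D2:**
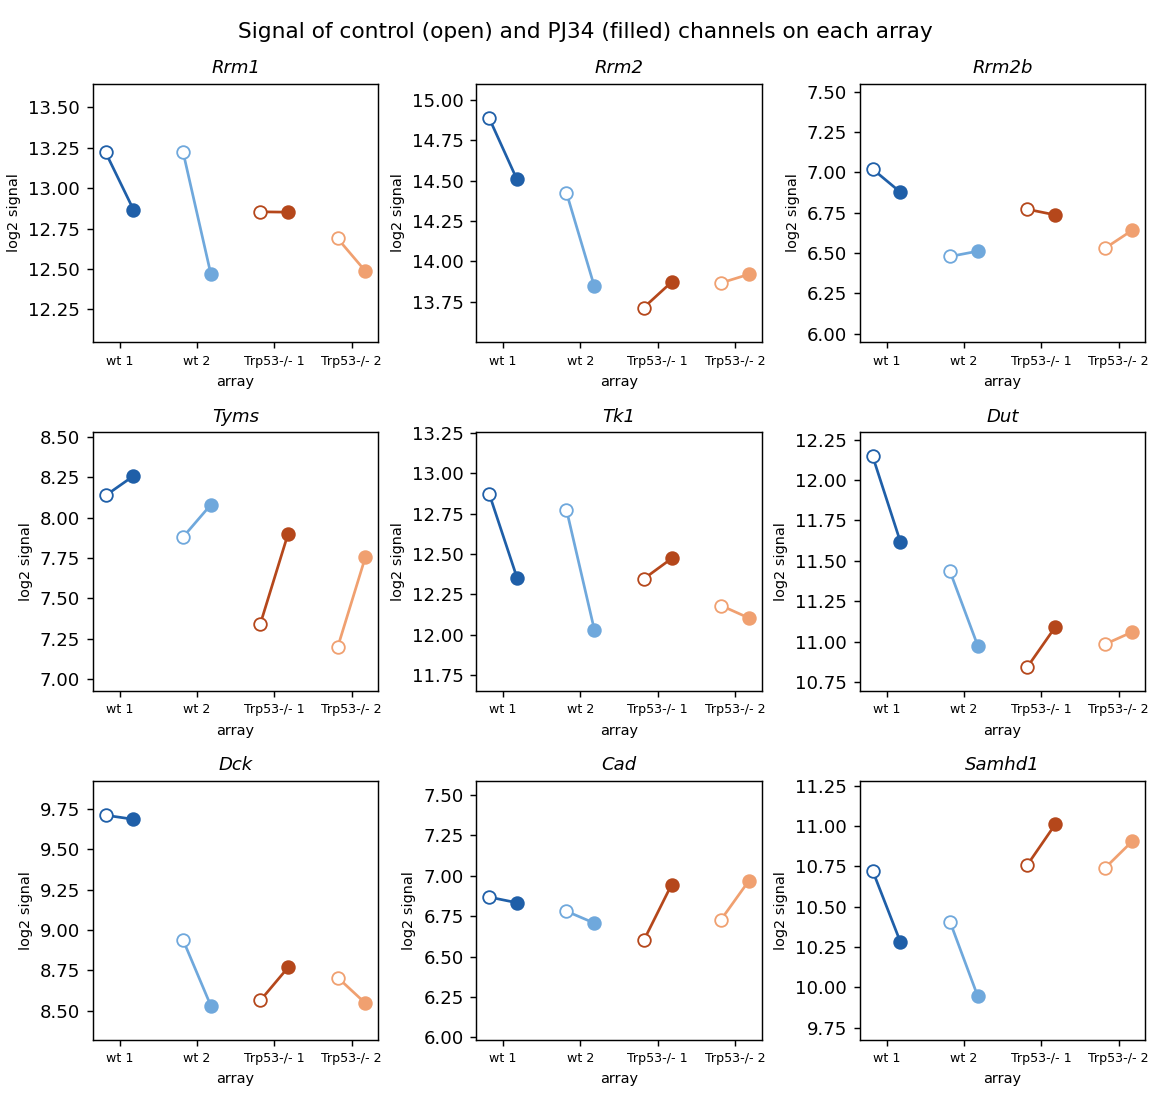
Log2 signal of the untreated (open circles) and PJ34 (filled circles) channels on each of the 4 arrays for the 9 genes, after quantile normalization between arrays; each panel has its own vertical scale, so levels are to be compared within a gene only. The lines of *Rrm1*, *Rrm2*, *Tk1*, *Dut* and *Samhd1* slope down on both wild-type arrays with loess (their wild-type means turn positive with median centring), and the *Tyms* lines slope up on all 4.

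Of the genes that provide thymidylate, *Tk1* and *Dut* fell in wild-type cells and *Tyms* did not. *Tk1*, the cytosolic thymidine kinase of the salvage route, gave log2 ratios of -0.52 and -0.74 on the wild-type arrays and of 0.13 and -0.08 in Trp53-/- cells. This was the steepest fall of the 9 genes in wild-type, 1.55-fold (log2 -0.63 ± 0.10 SE, limma, q = 0.00102), and in Trp53-/- cells the mean was 0.02 (q = 0.436). A second *Tk1* probe gave the same picture, at -0.55 and -0.93 in wild-type and 0.03 and 0.01 in Trp53-/- cells (limma, wild-type q = 0.000703). The remaining *Tk1* probe was above background in no channel.

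*Dut* encodes the dUTPase that keeps uracil out of DNA and yields dUMP for thymidylate synthesis. Its brightest probe read -0.53 and -0.46 (log2 ratio) with p53 and 0.25 and 0.08 in Trp53-/- cells, again without overlap, and the wild-type mean was 1.41-fold lower (log2 -0.50 ± 0.09 SE, limma, q = 0.00249). The second *Dut* probe read the other way in wild-type, at 0.29 and 0.17, and 0.34 and -0.0042 in Trp53-/- cells, with no call (limma, wild-type q = 0.0835). That probe was dim, with log2 signals between 6.15 and 6.80, and its control channel was well above background on 1 of 4 arrays. The mean of both probes, at -0.13, was not called in wild-type (limma, q = 0.18).

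*Tyms*, thymidylate synthase, was the one member with positive ratios on all 4 arrays, at 0.12 and 0.20 in wild-type and 0.56 and 0.56 in Trp53-/- cells. The rise was called in Trp53-/- cells (1.47-fold, log2 0.56 ± 0.09 SE, limma, q = 0.00165) and not in wild-type (0.16, q = 0.126; 95% interval -0.04 to 0.36). Its control signals were 8.14 and 7.88 in wild-type and 7.34 and 7.20 in Trp53-/- cells, and its PJ34 signals of 7.90 and 7.76 in Trp53-/- cells lay below the wild-type ones of 8.26 and 8.08. *Tyms* thus stayed lower in Trp53-/- than in wild-type cells in both channels.

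*Dck* and *Cad* were not called in wild-type cells. *Dck*, the deoxycytidine kinase of salvage, read -0.03 and -0.41 (log2 ratio) with p53 and 0.21 and -0.16 in Trp53-/- cells, and the genotypes overlapped; neither mean was called (limma, q = 0.126 and 0.449), and the 95% interval of the wild-type mean ran from -0.48 to 0.05. *Cad*, the trifunctional enzyme that starts pyrimidine synthesis, had ratios of -0.04 and -0.07 in wild-type and of 0.35 and 0.24 in Trp53-/- cells. Without p53 its control channel stayed too dim to pass as above background on any array, at a mean log2 signal of 6.66, while the PJ34 channel passed at 6.96. The measured rise was 1.23-fold (limma, q = 0.025), with a 95% interval of the log2 ratio from 0.09 to 0.49. The call was lost without Trp53-/- replicate 2 (log2 ratio 0.35, limma, q = 0.122) and without replicate 1 (0.24, q = 0.191).

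*Samhd1*, which hydrolyses dNTPs and so works against the other enzymes, fell in wild-type cells with them. Its brightest probe gave -0.44 and -0.46 (log2 ratio) on the wild-type arrays and 0.25 and 0.17 in Trp53-/- cells, and the wild-type mean was 1.37-fold lower (log2 -0.45 ± 0.09 SE, limma, q = 0.00328). The Trp53-/- mean of 0.21 was not called (q = 0.0677). A second probe, shown here since the 2 probes differ in direction without p53, fell in both genotypes.
Samhd1, second probe, mm9 chromosome 2, 156930644 to 156931997: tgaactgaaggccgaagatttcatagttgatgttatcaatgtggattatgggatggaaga
The positions of this 60-base probe span more than its length, so it joins exons, and the sequence has 1 reading frame without a stop; the brightest probe lies at 156923265 to 156923324 on the same chromosome. The second probe had ratios of -0.62 and -0.74 in wild-type and of -0.28 and -0.37 in Trp53-/- cells, with means of -0.68 (limma, q = 0.00053) and -0.32 (1.25-fold lower, limma, q = 0.0199). Without Trp53-/- replicate 2 the latter was -0.28 and not called (limma, q = 0.221). Averaged over both probes, the Trp53-/- value was -0.06 and not called (limma, q = 0.313). The remaining *Samhd1* probe was above background in no channel. Which transcripts each probe reads was not tested.

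**Figure D3:**
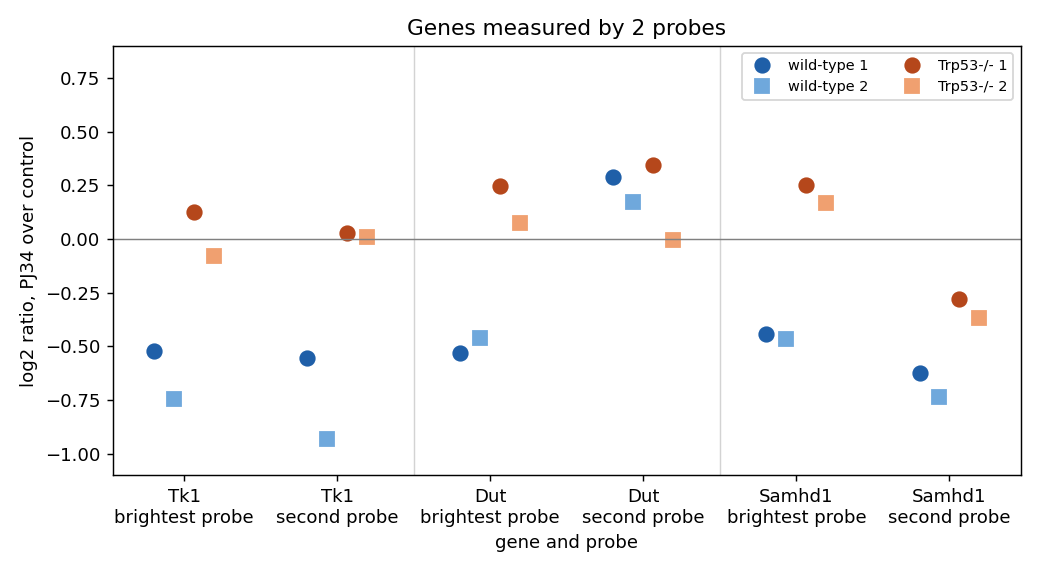
Log2 ratio of PJ34 over control (vertical axis) on the 4 arrays for each probe of the genes with 2 kept probes. The *Tk1* probes lie alike, the dim second *Dut* probe lies above 0 on both wild-type arrays, and the second *Samhd1* probe lies below 0 on all 4 arrays.

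The difference of the response between genotypes was then tested, since a call in one genotype and not in the other does not show that they differ. All 9 genes had a lower mean ratio in wild-type than in Trp53-/- cells, and 3 of them passed: *Samhd1* (difference -0.66 ± 0.13 SE, limma, q = 0.0241), *Dut* (-0.66 ± 0.13 SE, q = 0.0303) and *Tk1* (-0.66 ± 0.14 SE, q = 0.0396). Across all genes 0.493% were called lower in wild-type and 1.34% higher, and with over 2-fold 0.0406% and 0.447%; no member passed 2-fold. *Rrm2* was next, at -0.59 ± 0.13 SE (limma, q = 0.0502), followed by *Rrm1* at -0.45 (q = 0.158). *Tyms* (-0.40), *Cad* (-0.35), *Dck* (-0.24) and *Rrm2b* (-0.09) had q values from 0.124 to 0.598. The dim second *Dut* probe had a difference of 0.06 (limma, q = 0.676) and the second *Samhd1* probe one of -0.36 (q = 0.18), so these 2 differences rest on the brighter probes, whereas the second *Tk1* probe was called too (-0.76, q = 0.0333). The number of members called was 3 without Trp53-/- replicate 2 and 3 without wild-type replicate 1, where *Rrm2* (limma, q = 0.0392) passed in place of *Dut* (q = 0.0677), but 1 (*Dut*) without wild-type replicate 2 and 0 without Trp53-/- replicate 1. It was also 0 with the scanner's own log ratios, with median centring and with an offset of 16 in the background correction. Over all genes, 0, 2 and 2 were called lower at these settings, against 97 in the main one, so few genes of any kind passed there. With median centring the differences were -0.88 (*Dut*), -0.91 (*Samhd1*) and -0.91 (*Tk1*).

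Before treatment, 8 of the 9 genes had a lower mean signal in Trp53-/- than in wild-type cells, and 2 were called. *Rrm2* was 1.82-fold lower (log2 -0.87 ± 0.21 SE, limma, q = 0.0457) and *Tyms* 1.67-fold lower (-0.74 ± 0.18 SE, q = 0.0455), both with wild-type signals above both Trp53-/- signals. Across all genes, 4.19% were called lower and 4.2% higher, and with over 2-fold 2.06% and 1.99%; no member passed 2-fold. *Dut* had control signals of 12.15 and 11.43 in wild-type and of 10.84 and 10.98 in Trp53-/- cells, a difference of -0.88 that was not called (limma, q = 0.0669). *Tk1* (-0.56, limma, q = 0.0674), *Rrm1* (-0.45, q = 0.0957) and *Dck* (-0.69, q = 0.111) had no overlap between genotypes either and were not called. How many of all genes separate so was not counted. *Cad* was 1.12-fold higher in wild-type and not called (limma, q = 0.339). The 95% interval of its log2 difference, Trp53-/- minus wild-type, ran from -0.56 to 0.24. *Samhd1* alone had a higher mean in Trp53-/- cells (0.18, q = 0.331), and *Rrm2b* overlapped (-0.10, q = 0.471). Without either Trp53-/- array, replicate 1 or 2, no member was called; without wild-type replicate 1 there were 5 and without wild-type replicate 2 there were 7, all lower.

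The counts for other genes of nucleotide metabolism stand beside shares of 11.4% lower and 13.7% higher over all genes in wild-type and of 10.5% and 12.7% in Trp53-/- cells, and several lie near these shares. In the thymidylate and folate list 5 of 8 genes fell in wild-type and none rose (median -0.30), led by *Mthfd1l* (-0.94) and *Shmt1* (-0.77), which feed one-carbon units, and *Mthfd2* (-0.49). In Trp53-/- cells 2 of them fell (*Mthfd1l*, -0.34, and *Shmt1*, -0.33). Of 8 pyrimidine synthesis genes 3 fell in wild-type, among them *Dhodh* (-0.57), which carries on the route that *Cad* starts; 2 fell and 1 rose in Trp53-/- cells (medians -0.14 and -0.10). Of 16 purine synthesis genes 6 fell and 2 rose in wild-type, and 2 fell and 3 rose in Trp53-/- cells (medians -0.17 and 0.01). *Ppat*, the first committed enzyme of purine synthesis, fell in wild-type (-0.59), and its response differed between genotypes (-0.71, limma, q = 0.0191; -0.72 without Trp53-/- replicate 2, q = 0.0386), as did that of *Ak1*, an adenylate kinase, which rose (0.83; difference 1.00, q = 0.0196, or 1.23 without that array, q = 0.00112). *Dguok*, the mitochondrial deoxyguanosine kinase, rose in both genotypes (0.53 and 0.42), one of 3 genes up and 4 down of 15 in the salvage list in wild-type and of 4 up and 1 down in Trp53-/- cells (medians -0.04 and 0.0030). Of 15 measured breakdown and pool cleaning genes, 7 fell and 1 rose in wild-type and 3 fell and 2 rose in Trp53-/- cells (medians -0.18 and -0.14); *Upp1*, a uridine phosphorylase, fell in both (-0.67 and -0.68). Without Trp53-/- replicate 2, the calls left in Trp53-/- cells were 1 lower in the pyrimidine list, 0 in the purine list, 0 in the thymidylate and folate list, 1 lower in the salvage list and 2 lower in the breakdown list, *Upp1* among them (-0.75, limma, q = 0.00321), while *Dguok* was not called there (0.35, q = 0.133).

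S phase genes and G2 and M phase genes fell with most members in wild-type. In Trp53-/- cells the S phase median was 0.10, beside 0.11 for the members and 0.03 over all genes. Without Trp53-/- replicate 2 the S phase median was 0.14, and that of the G2 and M phase genes moved from -0.37 to -0.18. The part of either list in the members' change was not tested. Of 23 measured S phase genes, 18 fell and none rose in wild-type (median -0.41), and 5 rose and none fell in Trp53-/- cells (median 0.10). *Uhrf1* (-0.87), *Mcm6* (-0.67) and *Mcm7* (-0.62) fell the most among them in wild-type, and for 7 of the 23 the difference between genotypes was called, all lower in wild-type. Of 20 G2 and M phase genes, 19 fell in wild-type (median -0.67) and 11 in Trp53-/- cells (median -0.37), with *Ube2c* (-1.05) and *Ccnb2* (-0.95) lowest in wild-type; no difference between genotypes was called in that list, or 3 without Trp53-/- replicate 2. Without Trp53-/- replicate 2, the S phase genes called in Trp53-/- cells numbered 3 higher and the G2 and M phase genes 0. In untreated cells 2 S phase genes, *Gmnn* (-0.82) and *Gins1* (-0.70), were lower without p53, beside 4.19% of all genes, and without Trp53-/- replicate 2 none of the list was called.

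**Figure D4:**
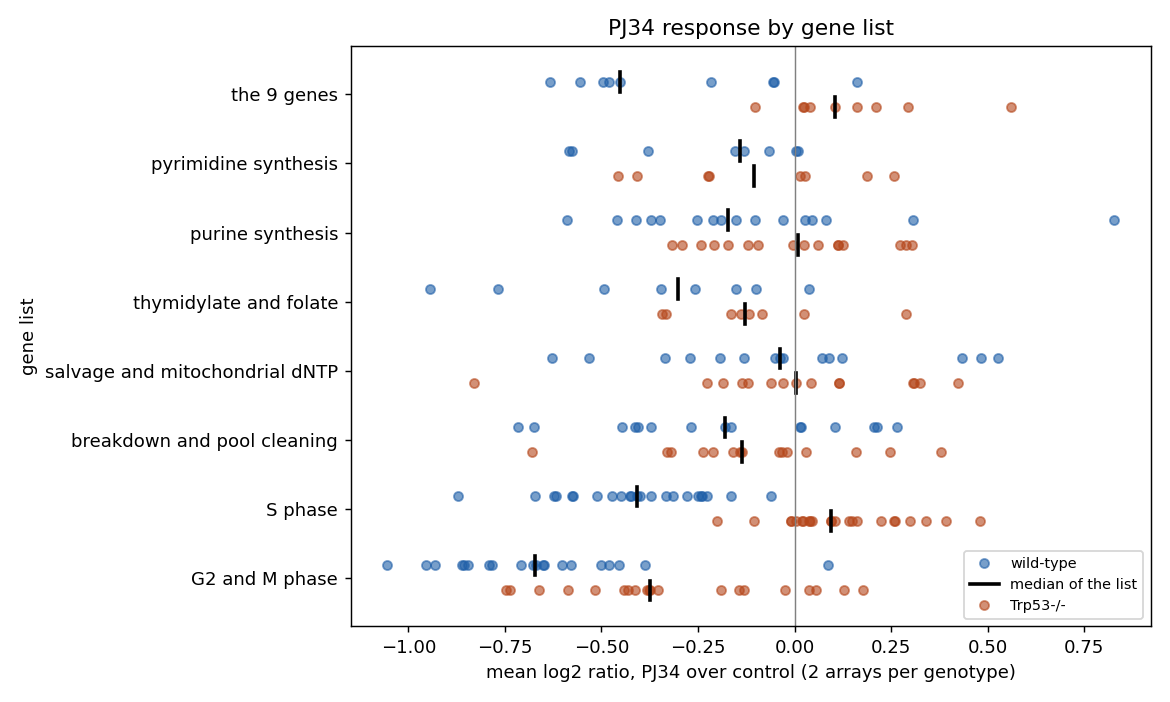
Mean log2 ratio of PJ34 over control (horizontal axis) of each gene, by gene list, in wild-type and Trp53-/- cells, with a bar at the median of a list, after loess (median centring moves the median of all genes to 0.46 and 0.64). The 9 genes and the S phase genes sit to the left of 0 in wild-type, apart from *Tyms*, and mostly to the right of 0 in Trp53-/- cells, while the G2 and M phase genes sit mainly to the left in both.

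By likeness of the 4 log2 ratios, measured as the root mean squared difference over the 4 arrays and given as a description, *Rrm1* lay closest to *Espl1* (0.0507), *Selenoh* (0.0598) and *Kif22* (0.0683). *Rrm2* lay closest to *Haspin* (0.0343), *Pwwp3a* (0.0568) and *Lig1* (0.0599). *Rrm2b* lay closest to *Fam210b* (0.0172), *Cnih4* (0.0192) and *Mtmr7* (0.0232), whose ratios also lay near 0 on all arrays.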

How the data were processed

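Expression was measured on Agilent SurePrint G3 Mouse GE arrays, scanned and extracted by the authors with Feature Extraction 10.7.3.1 on build mm9. The intensity values the authors deposited and used here are the uncorrected mean of each spot and the median of its local background in both colours; the log10 ratios and processed intensities the authors deposited, background-subtracted and dye-normalized by the scanner software, served as alternatives. A deposited table of 4 normalized columns named by number was not used, since no array matches them by name. Gene names were those shared by 3 of the 4 files, updated through RefSeq accessions (GRCm38.p6) for 27235 of 55681 probes (48.9%); 4 member probes are named in 3 of the 4 files.

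Backgrounds were corrected with normexp (offset 50) and ratios normalized by loess within arrays (limma 3.58.1, R 4.3.3). Control spots and between 228 and 276 outlier spots per array were left out. A probe was kept if 1 of its colours or both exceeded background clearly, by the scanner's flag, in each array of 1 genotype (27042 probes, 48.6%), and a gene was read from its brightest probe. Between 21505 and 27156 probes per channel were well above background, no spot was saturated, and the number of arrays limits the precision. limma (lmFit, eBayes) was fitted over all 4 arrays with 1 mean per genotype; residual degrees of freedom were 2, and 10.49 after moderation (6.18 for untreated signals). Genes were called at p and Storey's q under 0.05, and separately over 2-fold. Untreated levels are Cy3 signals after loess and quantile normalization of average intensities between arrays. For a colour too dim by that flag in both arrays of a genotype, a lower limit of the fold was sought, open to dye bias. The brighter mean was set against whichever is larger in each array, the probe's signal or the faintest signal that passed the flag. For *Cad* this gave the measured fold itself, and the spread between arrays is not in it.

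The text names all 9 members, of each other list at most the 3 largest called changes per comparison, and the 3 genes most like *Rrm1*, *Rrm2* and *Rrm2b*. *Trp53*, *Eif2s3y*, *Ddx3y*, *Nes* and *Sox2* were named besides as checks on the samples. The result of 1 gene of these lists is not reported here. Members and lists were chosen with earlier results of these data known. Replicates are independently prepared RNAs. Each array was on its own slide, so slide was not fitted as a block. The script was tested on simulated data.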

Additional observations from a re-analysis of the deposited data

Results flagged for a closer look

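The response to PJ34 differed between the genotypes for 3 of the 9 genes by limma's test of the difference, wild-type minus Trp53-/-. For *Samhd1* the difference in log2 ratio was -0.66 (limma, q = 0.0241), for *Dut* it was -0.66 (q = 0.0303) and for *Tk1* it was -0.66 (q = 0.0396). Of 23 S phase genes, 7 differed in the same direction, and their part in the result was not tested. Without Trp53-/- replicate 2, the array with Y-linked transcripts in 1 channel, the differences were -0.70, -0.74 and -0.76 (limma, q = 0.0419, 0.0322 and 0.0333). All 3 calls were lost without Trp53-/- replicate 1, with the scanner's log ratios, with an offset of 16 and with median centring, and only that of *Dut* was left without wild-type replicate 2. Over all genes, 0 were called lower with the scanner's log ratios, 2 with an offset of 16 and 2 with median centring, against 97 in the main setting. The second probes of *Dut* (0.06, limma, q = 0.676) and *Samhd1* (-0.36, q = 0.18) were not called, and that of *Tk1* was (-0.76, q = 0.0333). Samples of n = 2 per genotype were too few for a test of outlying arrays.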

How the results depend on the processing

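With median centring in place of loess, members called numbered 1 higher and 0 lower in wild-type, 8 higher in Trp53-/- cells, 4 of them over 2-fold, and 0 for the difference. Ratios that changed sign under it were *Rrm1* 0.14, *Rrm2* 0.27, *Rrm2b* 0.0567, *Tk1* 0.045, *Dut* 0.14, *Dck* 0.32, *Cad* 0.11 and *Samhd1* 0.16 in wild-type, all below the median of all genes, 0.46, at that setting, and *Rrm1* 0.85 in Trp53-/- cells. With scanner log ratios, 0 members were called lower in wild-type and 0 for the difference. The difference was called for 1 member without background correction and 0 with an offset of 16. Over all genes the difference was called lower for 38 and 2 at these settings. It was called lower for 2 with median centring and 0 with scanner log ratios, against 97 in the main setting. A strict filter (both channels well above background on all 4 arrays) and Benjamini-Hochberg adjustment each left 1 member higher in Trp53-/- cells. Untreated calls fell to 0 with scanner processed signals, with quantile normalization of Cy3 alone, with the strict filter and with Benjamini-Hochberg, and to 1 with no filter.

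Leaving out each array in turn, wild-type calls ranged from 3 to 5 lower, Trp53-/- calls from 1 to 2 higher, the difference from 0 to 3, and untreated calls from 0 to 7 lower, with from 0 to 3 over 2-fold. Values that were not called and turned sign with an array left out ranged from -0.16 to 0.205 (*Dck*), from -0.0773 to 0.126 (*Tk1*) and from -0.0347 to 0.11 (*Rrm2b*) in Trp53-/- cells, and for *Rrm2b* from -0.143 to 0.0331 in wild-type and from -0.37 to 0.17 untreated. The sign also turned with no background correction (*Dck* -0.0241) and with the mean of probes (*Samhd1* -0.0561), both in Trp53-/- cells. With the replicate block, 5 members were lower in wild-type, 2 higher in Trp53-/- cells, 4 in the difference and 3 untreated; same-numbered arrays are not known to be pairs, and their deviations correlated at -0.169 (ratios) and 0.0743 (untreated). With the crossed pairing, chosen after seeing the data as were the list counts without Trp53-/- replicate 2, the counts were 5, 2 and 4. The scale between arrays and the variance trend kept each count of called ratios within 1.5 times. Where a count moved, the cause was not tested, apart from the fewer arrays left in.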
